A study of Rattus norvegicus with 12 samples.

Results

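Nuclear genes for the subunits of the 5 oxidative phosphorylation complexes were followed in bone from around rat dental mini-implants. They were taken by name from the deposited expression table, as protein-coding rows outside the mitochondrial chromosome whose symbols begin with Nduf (a, b, c, s or v and a number), Sdh (a to d), Uqcr, Cox4 to Cox8 or Atp5. The rule found 83 of 33801 rows, 39 of complex I, 4 of complex II, 8 of complex III, 17 of complex IV and 15 of complex V. The 83 rows carry 78 symbols, because 5 symbols stand on 2 rows each, and 8 rows are pseudogenes or the lower copy of such a pair. All rats were wild type, and implants stood at the maxillary first molar. The 12 libraries fall into 4 groups of 3, which are Nb3 alloy with loading (loaded Nb3 alloy), Nb3 alloy without loading (non-loaded Nb3 alloy), cpTi with loading (loaded cpTi) and cpTi without loading (non-loaded cpTi), where Nb3 alloy is Zr58Cu25Al14Nb3, cpTi is titanium, loading was cyclic for 2 weeks, and non-loaded implants stayed static. Polyadenylated RNA was sequenced from bone within a diameter of 4 mm. Nothing in the labels says that replicates are separate animals, so p-values measure only the spread between these samples, and in bulk tissue fewer cells of a type and less RNA per cell cannot be told apart.

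Oxidative phosphorylation passes electrons from NADH (complex I) or succinate (complex II) through ubiquinone to complex III, then through cytochrome c to complex IV, which reduces oxygen. Complexes I, III and IV pump protons across the inner mitochondrial membrane, and complex V, the ATP synthase, uses their return to make ATP. Complex II is encoded wholly in the nucleus, while the other complexes combine nuclear subunits with a few made from mitochondrial DNA. Several complex IV subunits exist as a general form and a form restricted to some tissues or conditions. In bone, osteoclasts are known to be rich in mitochondria.

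Promoters from RefSeq (GRCr8, 250 bases before to 50 after the gene start) were at hand for 67 of the 78 symbols. The YY1 motif AAGATGGC stood in 14 of the 67 (20.9%), against 3.17% of 33469 promoters of all genes, counting both strands. The NRF1 motif GCGCATGC stood in 9 (13.4%, against 2.47%), the ETS motif CCGGAAGT in 7 (10.4%, against 3.81%) and the NFY motif CCAAT in 22 (32.8%, against 37.5%). NRF1 and the ETS factor GABP are textbook regulators of nuclear respiratory genes. Searched after values had been seen were a MEF2 motif, CTAAAAATA (1 member, 1.49%, against 0.511%), the E-box CAGCTG (14.9%, against 15.1%) and the hypoxia element core ACGTG (22.4%, against 19.3%). No motif contains another, and a match is only a match of letters. Promoters of 4 members are shown 5′ to 3′ with matches in capitals: Ndufa4l2, Ndufa2 and Cox6a2, which were higher in loaded Nb3-alloy bone, and Atp5f1b, the member with the highest mean level.
Ndufa4l2 (chr7:65241919-65242218, plus strand): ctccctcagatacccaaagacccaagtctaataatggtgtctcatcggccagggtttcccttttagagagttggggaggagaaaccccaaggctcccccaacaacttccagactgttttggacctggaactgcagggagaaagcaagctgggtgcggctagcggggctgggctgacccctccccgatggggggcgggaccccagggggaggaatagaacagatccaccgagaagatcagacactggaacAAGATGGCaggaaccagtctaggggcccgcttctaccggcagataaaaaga
Ndufa2 (chr18:28631835-28632134, minus strand): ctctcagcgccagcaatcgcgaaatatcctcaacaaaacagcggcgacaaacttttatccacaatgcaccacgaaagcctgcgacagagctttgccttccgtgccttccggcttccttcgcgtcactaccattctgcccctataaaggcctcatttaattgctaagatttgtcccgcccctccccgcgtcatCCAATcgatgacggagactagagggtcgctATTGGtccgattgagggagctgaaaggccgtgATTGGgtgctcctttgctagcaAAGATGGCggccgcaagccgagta
Cox6a2 (chr1:192219667-192219966, minus strand): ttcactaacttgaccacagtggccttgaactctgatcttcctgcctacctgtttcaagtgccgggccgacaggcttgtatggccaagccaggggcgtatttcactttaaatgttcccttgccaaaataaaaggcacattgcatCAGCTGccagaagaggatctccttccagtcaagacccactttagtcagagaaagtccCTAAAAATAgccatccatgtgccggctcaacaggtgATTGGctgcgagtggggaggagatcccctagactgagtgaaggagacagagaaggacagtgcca
Atp5f1b (chr7:1099808-1100107, plus strand): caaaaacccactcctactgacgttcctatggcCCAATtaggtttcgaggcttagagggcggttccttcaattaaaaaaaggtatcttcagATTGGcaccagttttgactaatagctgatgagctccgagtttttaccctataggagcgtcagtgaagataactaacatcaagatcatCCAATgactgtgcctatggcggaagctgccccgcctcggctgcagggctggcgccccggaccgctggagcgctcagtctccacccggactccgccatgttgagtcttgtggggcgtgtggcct
The Ndufa4l2 and Ndufa2 promoters hold the YY1 motif close to the gene start, and Ndufa2 also holds 3 CCAAT motifs, 2 of them on the other strand. The Cox6a2 promoter holds the E-box, the MEF2 motif and 1 CCAAT on the other strand, and it was the only member promoter with the MEF2 motif. The Atp5f1b promoter holds 3 CCAAT motifs, 1 of them on the other strand.

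In the libraries as a whole, reads on genes numbered 12911912 to 22308428. The 3 loaded Nb3-alloy libraries differed from the other 9 in makeup: mitochondrial reads were 11.3% to 24.3% there, against 4.31% to 6.86% elsewhere. Summed erythroid markers were 6.99 to 24.9 FPKM in loaded Nb3-alloy bone and 1151 to 2693 FPKM in the other groups, and neutrophil and cell division markers were low in the same 3 libraries. Osteoblast and osteocyte markers, which define the labelled tissue, summed to at least 3552 FPKM in every library. All levels below are FPKM, fragments per kilobase scaled by a depth per library that followed median-of-ratios size factors (ratio 0.992 to 1.02) and not the total reads, and all differences are on the log2(FPKM + 1) scale, which understates low genes. A gene was tested with limma if 3 or more libraries reached 1 FPKM (15268 genes), and a call needed a p below 0.05 after Benjamini-Hochberg adjustment over all of them.

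Most subunit genes were well expressed in every group. Of the 83 rows, 74 had a mean over the 12 libraries of at least 1 FPKM, 65 of at least 10, 29 of at least 50 and 9 of at least 100 FPKM. The highest mean was that of Atp5f1b, the catalytic beta subunit of ATP synthase, at 446 FPKM, followed by Cox6a1 at 228 FPKM, Atp5f1a at 206 FPKM and Atp5mc2, a c-ring subunit gene, at 189 FPKM. The 74 rows also passed the filter for testing, and the 9 that did not lay between 0 and 1.37 FPKM. Among them were Ndufa3, Cox7a1, Cox7b2, Cox8c, the second rows of Uqcrb and Ndufb2, Cox6b1-ps1 and Cox6c-ps1, with Cox7b2, Cox6c-ps1 and the second Ndufb2 row at 0 in every library. The row of Ndufa3 lies wholly within that of another gene. In all, 30 members overlap another gene row, 10 of them over at least 50% of their span, and their levels are uncertain because no source used here gives the strand setting of the counting. The deposited descriptions of 3 rows (Ndufa7, Ndufb2 on chromosome 4 and Ndufa1) name another protein.

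Summed over the 83 rows, nuclear subunit levels did not separate the groups. The sums were 4617, 5060 and 3799 FPKM in loaded Nb3 alloy, 3094, 4913 and 4750 FPKM in non-loaded Nb3 alloy, 4711, 3769 and 4515 FPKM in loaded cpTi, and 4128, 4235 and 4191 FPKM in non-loaded cpTi. The groups overlapped, and the lowest and the second highest sum came from the same group, non-loaded Nb3 alloy. Replicate 1 of that group was the lowest of the 12 libraries for 55 of the 74 tested members, with a median deviation of -0.50 from the 12-library mean, against -0.17 to 0.25 in the other 11 libraries. Over all tested genes the median deviation of that library was 0.02. Loaded Nb3-alloy replicate 2 was the highest library for 30 of the 74 members and replicate 1 for 17. Osteoclast markers summed to 4893, 1060 and 3110 FPKM in loaded and 762, 1281 and 902 FPKM in non-loaded Nb3 alloy, in replicate order. In cpTi they summed to 706, 1898 and 1789 FPKM in loaded and 777, 755 and 1319 FPKM in non-loaded bone. Of the 8 markers, 3 were called higher with loading in Nb3 alloy, against 20.7% of all tested genes. Their part in the subunit levels was not tested.

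**Figure D1:**
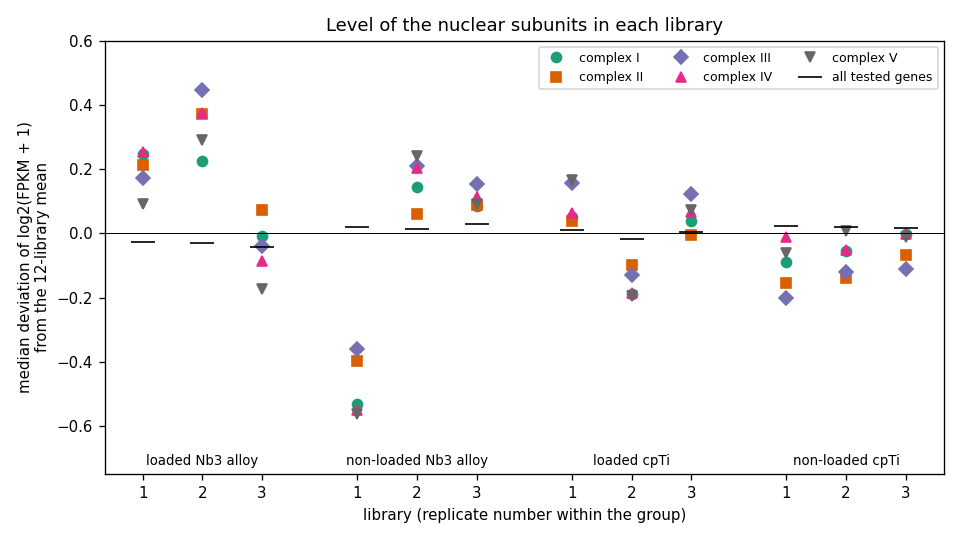
Median deviation of the tested members of each complex, and of all tested genes, from their mean over the 12 libraries, in log2(FPKM + 1), for each library, Nb3 alloy to the left of cpTi and loaded to the left of non-loaded. The 5 complexes sit together in most libraries, and all 5 are lowest in non-loaded Nb3-alloy replicate 1, where the median over members is -0.50.

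Beside the Nb3 alloy, a few subunit genes were called higher with loading, fewer were called lower, and most were not called. Of 74 tested members, 12 were called higher (16.2%), against 20.7% of all tested genes, and 2 lower (2.70%), against 25.2% of all tested genes. The median over members was 0.21, against -0.02 over all tested genes. With libraries scaled by total reads, which moved the median of all genes to -0.17, it was 0.02 and the calls split into 5 higher and 8 lower. Of all genes in that run, 14.7% were called higher and 30.5% lower. With quantile normalization the members' calls split into 19 higher and 7 lower, against 22.4% and 23.4% of all genes. Without non-loaded Nb3-alloy replicate 1 the median was 0.01, with 8 higher and 7 lower, against 19.3% and 23.5% of all genes. Lower calls numbered 4 without loaded Nb3-alloy replicate 2 and 1 without non-loaded Nb3-alloy replicate 2 or 3. Of all genes, 25.1%, 23.2% and 20.5% were called lower in these runs, in that order. Differences below 0.5 in size were found for 78.4% of members and 49.1% of all tested genes, and differences of at least 1 for 5.41% of members and 24.7% of all tested genes. By complex the medians were 0.22 in I, 0.26 in II, 0.33 in III, 0.24 in IV and 0.10 in V, and they were 0.01, 0.09, 0.12, 0.02 and -0.11 without non-loaded Nb3-alloy replicate 1. With total-read scaling they were 0.04, 0.08, 0.15, 0.06 and -0.02. Of the 12 higher calls, 5 (Ndufa4l2, Cox4i2, Cox6a2, Ndufa2 and Ndufa7) held in every alternative run at the same threshold on adjusted p alone, where tested. Cox6a2 was not tested with the filter of 1 FPKM in at least 6 libraries. It passed the main filter only through loaded libraries, where it was high, so its call is no support for a difference.

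**Figure D2:**
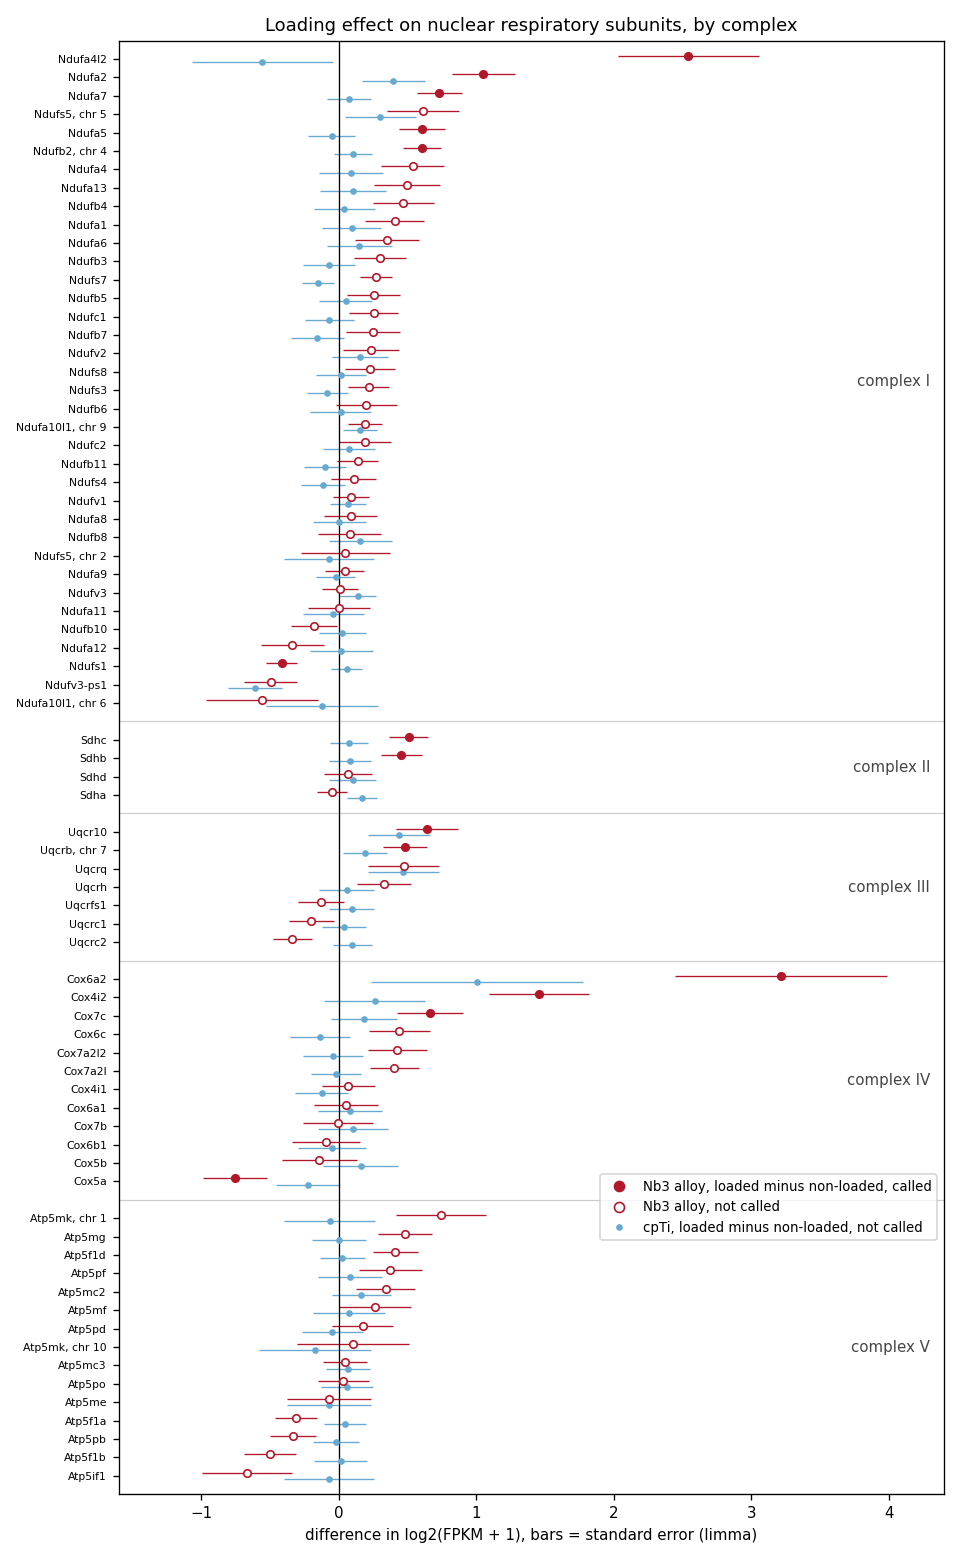
Difference in log2(FPKM + 1), loaded minus non-loaded, of the 74 tested members by complex, with the limma standard error. Red points are the Nb3 alloy, filled where called at an adjusted p under 0.05 and open where not, and blue points are cpTi, where 0 members were called.

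In complex I, which holds 36 of the tested members, 5 were called higher (13.9%, against 20.7% of all tested genes) and 1 lower (2.78%, against 25.2%). The largest difference was that of Ndufa4l2 (ENSRNOG00000031851, chromosome 7, 63356883 to 63359010 in the deposited table), a paralog of Ndufa4 that is known in mouse and human cells as a target of hypoxia-inducible factors. Ndufa4l2 stood at 15.3, 32.1 and 14.8 FPKM in loaded Nb3 alloy, 6.87, 1.99 and 0.831 FPKM in non-loaded Nb3 alloy, 0.607, 3.15 and 2.47 FPKM in loaded cpTi, and 2.56, 3.71 and 3.38 FPKM in non-loaded cpTi. All 3 loaded Nb3-alloy libraries lay above the other 9, and the other 3 groups overlapped each other. The loading difference in Nb3 alloy was 2.54 (SE 0.51, adjusted p = 0.00219), in a range of 2.07 to 3.13 over the alternatives. Ndufa4 itself, counted here by its name although it is now described as a subunit of cytochrome c oxidase, stood at 29.4 ± 5.18 FPKM in loaded bone and 20.4 ± 6.01 FPKM in non-loaded bone beside Nb3 alloy (SD, n = 3 each) and was not called (0.54, SE 0.23, adjusted p = 0.0772), though it was without non-loaded Nb3-alloy replicate 2 (adjusted p = 0.0453) and with quantile normalization (adjusted p = 0.0431). In the sum of the pair, Ndufa4l2 made up 30.6%, 52.4% and 37.8% in loaded and 33.7%, 7.43% and 3.51% in non-loaded Nb3-alloy libraries, so the shares overlapped through replicate 1 of the non-loaded group.

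Accessory subunits of the matrix arm of complex I made up 3 of the other calls. Ndufa2 (ENSRNOG00000017571, chromosome 18, 28355774 to 28358076), an accessory subunit with a thioredoxin-like fold, stood at 56.1, 64.4 and 46.1 FPKM in loaded and 18.3, 33.6 and 28.4 FPKM in non-loaded Nb3 alloy. The groups did not overlap, and the difference was 1.05 (SE 0.23, adjusted p = 0.00332). The row named Ndufa7 stood at 20.8, 24.8 and 21.6 FPKM in loaded and 9.69, 16.97 and 13.5 FPKM in non-loaded Nb3 alloy (0.73, SE 0.16, adjusted p = 0.00376), but its deposited description is that of the CD320 antigen. Ndufa5, which sits in the arm that holds the flavin and iron-sulfur centres, averaged 17.3 ± 0.737 FPKM in loaded bone and 11.3 ± 3.30 FPKM in non-loaded bone beside Nb3 alloy (0.61, adjusted p = 0.012). The row named Ndufb2 on chromosome 4, whose deposited description is that of the kinase ADCK2, had a difference of 0.61 (adjusted p = 0.00435). It was the only 1 of 17 tested accessory membrane-arm subunits to be called, and 16 of the 17 had a difference above 0, with a median of 0.25.

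Of the nuclear core subunits of complex I, among them the carriers of its redox centres, 6 were tested. Ndufs1, the largest of them and the holder of iron-sulfur clusters next to the flavin site, stood at 21.1, 21.4 and 21.2 FPKM in loaded and 24.8, 31.1 and 30.4 FPKM in non-loaded Nb3 alloy. The difference was -0.41 (SE 0.11, adjusted p = 0.0117), so Ndufs1 fell, with no overlap between the groups, and at the same threshold on adjusted p the call was lost only when the other groups were left out of the fit (adjusted p = 0.0539). The other 5 core subunits lay between 0.09 and 0.27 and were not called.

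Complex II, succinate dehydrogenase, links the citric acid cycle to the respiratory chain. Its membrane anchor gene Sdhc stood at 57.4, 64.6 and 51.5 FPKM in loaded and 33.0, 44.7 and 44.1 FPKM in non-loaded Nb3 alloy (0.51, SE 0.14, adjusted p = 0.0119). The iron-sulfur subunit gene Sdhb stood at 42.7, 53.8 and 39.1 FPKM in loaded and 26.1, 35.9 and 36.3 FPKM in non-loaded Nb3 alloy (0.46, SE 0.15, adjusted p = 0.0286). Both rose, and in both the groups did not overlap. They were 2 of 4 tested members, against 20.7% of all tested genes called higher, and 4 members are too few to be read against that share. The flavoprotein gene Sdha, at 39.1 ± 2.63 FPKM in loaded bone and 40.6 ± 3.97 FPKM in non-loaded bone beside Nb3 alloy, had a difference of -0.05 (SE 0.11, adjusted p = 0.739). The second anchor gene Sdhd had one of 0.07 (SE 0.17, adjusted p = 0.782). The Sdhb call was lost without loaded Nb3-alloy replicate 2 and without non-loaded replicate 1, with adjusted p up to 0.124 over the alternatives. Both the Sdhb and the Sdhc call were lost with total-read scaling and with only the compared groups in the fit. For Sdhc the adjusted p reached 0.077.

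In complex III the small subunits and the core proteins lay on different sides of 0. Uqcr10, a small subunit beside cytochrome c1, stood at 55.3, 60.1 and 41.4 FPKM in loaded and 22.0, 39.8 and 39.9 FPKM in non-loaded Nb3 alloy (0.64, SE 0.22, adjusted p = 0.0355). Uqcrb on chromosome 7, a subunit at the ubiquinone site, averaged 17.7 ± 2.66 FPKM in loaded bone and 12.5 ± 2.67 FPKM in non-loaded bone beside Nb3 alloy (0.48, SE 0.16, adjusted p = 0.0286). The other small subunits, Uqcrh and Uqcrq, had differences of 0.33 and 0.47 and were not called. The core proteins Uqcrc1 and Uqcrc2 had -0.20 and -0.34, and the Rieske iron-sulfur protein Uqcrfs1 had -0.13, and none of the 3 was called. Complex III thus had 2 higher and 0 lower calls among 7 tested members, against 20.7% and 25.2% of all tested genes. Uqcrc2 was called lower without non-loaded replicate 1 (-0.46, adjusted p = 0.0196) and with total-read scaling (-0.51, adjusted p = 0.0288). Neither Uqcr10 nor Uqcrb was called without non-loaded Nb3-alloy replicate 1 or without loaded replicate 2. Uqcr10 was also lost without loaded replicate 1, and Uqcrb without non-loaded replicate 3.

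In complex IV the largest differences were those of tissue forms. Cox4i2 (ENSRNOG00000007827, chromosome 3, 141228443 to 141239331), the form of subunit 4 known for lung and for low oxygen, stood at 12.9, 19.0 and 13.3 FPKM in loaded and 7.66, 4.76 and 2.86 FPKM in non-loaded Nb3 alloy. In cpTi it stood at 3.02, 6.73 and 4.16 FPKM in loaded and 1.88, 5.57 and 3.93 FPKM in non-loaded bone. The 3 loaded Nb3-alloy libraries lay above the other 9, and the loading difference in Nb3 alloy was 1.46 (SE 0.36, adjusted p = 0.00726). The general form Cox4i1 averaged 102 ± 13.7 FPKM in loaded bone and 98.7 ± 23.2 FPKM in non-loaded bone beside Nb3 alloy (0.07, SE 0.19, adjusted p = 0.79). Cox4i2 made up 10.3%, 15.0% and 13.3% of the pair in loaded and 9.60%, 4.17% and 2.43% in non-loaded Nb3-alloy libraries.

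**Figure D3:**
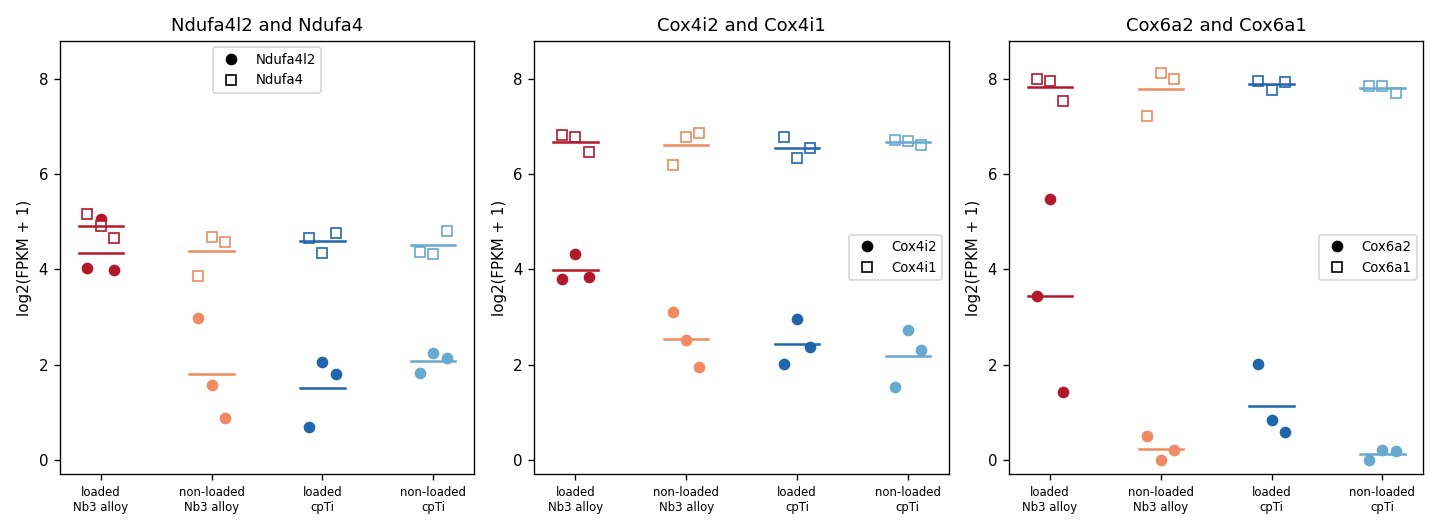
Log2(FPKM + 1) of a tissue form (filled circles) and of the general form it pairs with (open squares) in each library of the 4 groups, with lines at the mean of the log2 values. Ndufa4l2 and Cox4i2 are higher in all 3 loaded Nb3-alloy libraries than in the other 9, and Cox6a2 spans 1.70 to 43.4 FPKM within that group.

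Ndufa4l2 and Cox4i2 are both known as genes of pericytes in mouse. Markers of smooth muscle and pericytes were, like both genes, highest in the 3 loaded Nb3-alloy libraries. The 8 markers, among them Acta2, Tagln, Rgs5 and Pdgfrb, summed to 677, 1024 and 793 FPKM in loaded Nb3 alloy, 193, 142 and 114 FPKM in non-loaded Nb3 alloy, 163, 354 and 255 FPKM in loaded cpTi, and 227, 366 and 250 FPKM in non-loaded cpTi. All 8 were called higher with loading in Nb3 alloy, against 20.7% of all tested genes, with a median of 2.32. Between the non-loaded groups, Nb3 alloy minus cpTi, the marker median was -1.16 and 0 of the 8 were called. None of them was at 0 in every library of a group. Their part in the levels of Ndufa4l2 and Cox4i2 was not tested.

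Cox6a2 (ENSRNOG00000019851, chromosome 1, 182788528 to 182789274), the heart and skeletal muscle form of subunit 6A, had the largest difference of any member, 3.21 (SE 0.77, adjusted p = 0.00577). It reached 1 FPKM in 4 libraries, all of them loaded, and so was tested only through the group where it was high, and its call is no support for a difference. It stood at 9.83, 43.4 and 1.70 FPKM in loaded Nb3 alloy, which came from 77, 372 and 14 reads. In non-loaded Nb3 alloy it stood at 0.409, 0 and 0.150 FPKM, and in cpTi at 3.01, 0.783 and 0.503 FPKM in loaded and 0, 0.157 and 0.143 FPKM in non-loaded bone. The loaded Nb3-alloy libraries lay above the non-loaded ones but differed widely among themselves, and loaded cpTi replicate 1 lay above loaded Nb3-alloy replicate 3. The general form Cox6a1 averaged 229 ± 39.5 FPKM in loaded bone and 227 ± 70.1 FPKM in non-loaded bone beside Nb3 alloy (0.05, SE 0.23, adjusted p = 0.879). The difference for Cox6a2 was 2.20 without loaded Nb3-alloy replicate 2 (adjusted p = 0.00806) and 4.22 without replicate 3 (adjusted p = 0.000245).

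Skeletal muscle markers were high in the libraries where Cox6a2 was high. The 9 markers with a row summed to 181, 970 and 5.07 FPKM in loaded Nb3 alloy, 3.94, 3.03 and 6.16 FPKM in non-loaded Nb3 alloy, 32.9, 3.70 and 3.39 FPKM in loaded cpTi, and 5.59, 8.77 and 3.39 FPKM in non-loaded cpTi. Of the 7 tested, 5 were called higher with loading in Nb3 alloy, against 20.7% of all tested genes, with a median of 3.58. The sums were highest in loaded libraries, so markers may have passed the filter through them, and these calls are no support for a difference. Acta1, skeletal actin, stood at 74.8, 328 and 0 FPKM and Ckm, muscle creatine kinase, at 24.3, 155 and 0.040 FPKM in loaded Nb3 alloy. Myh2 was at 0 in every non-loaded cpTi library. In loaded Nb3-alloy replicate 3 Acta1, Mb, Myh2 and Myh4 were at 0 and Tnnt3 was the highest of the 9 at 2.83 FPKM, while Cox6a2 stood at 1.70 FPKM, from 14 reads, against at most 0.409 FPKM, from 3 reads, in the non-loaded Nb3-alloy libraries. How much of the Cox6a2 signal belongs with the muscle markers was not tested. A row without a symbol that the deposited table describes as the muscle form of subunit 8 (COX8B), which is no member, stood at 2.997, 23.6 and 0.778 FPKM in loaded Nb3 alloy and at 0.134 FPKM or less in the other 9 libraries. A second such row, described as the general form COX8A, stood at 93.3 to 156 FPKM across the 12 libraries and was not called. Cox7a1, the muscle form of subunit 7A, stood at 0.166 to 0.685 FPKM and was highest in a non-loaded cpTi library.

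**Figure D4:**
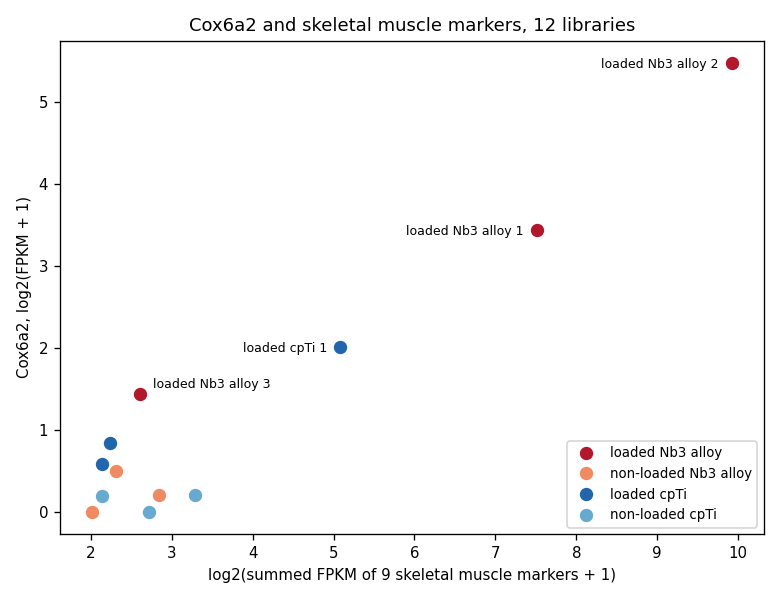
Log2(FPKM + 1) of Cox6a2 (vertical axis) and log2 of the summed FPKM of 9 skeletal muscle markers plus 1 (horizontal axis) in each library, 1 point per library. Loaded Nb3-alloy replicates 2 and 1 and loaded cpTi replicate 1 lie highest on both axes, and loaded Nb3-alloy replicate 3 lies at the low end of the marker axis.

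Of the 9 general complex IV subunits, 1 was called in each direction (11.1%, against 20.7% higher and 25.2% lower over all tested genes). Cox7c stood at 58.2, 80.3 and 48.4 FPKM in loaded and 25.7, 50.8 and 42.0 FPKM in non-loaded Nb3 alloy (0.67, SE 0.24, adjusted p = 0.0415), and these values overlap between the groups. Cox5a, which binds thyroid hormone metabolites in the bovine enzyme, stood at 32.4, 39.4 and 22.6 FPKM in loaded and 36.4, 57.6 and 68.9 FPKM in non-loaded Nb3 alloy. Cox5a fell, by a difference of -0.76 (SE 0.23, adjusted p = 0.0208), also with an overlap, and its row lies wholly within that of Ppcdc. Both calls were lost when 1 library was left out, Cox7c without loaded replicates 1 or 2 or non-loaded replicates 1 or 3, and Cox5a without loaded replicate 3 or non-loaded replicates 2 or 3. The remaining general subunits, beside Cox4i1 and Cox6a1, were not called: Cox6b1 (-0.09), Cox7b (-0.01), Cox5b (-0.14), Cox6c (0.44) and Cox7a2l2 (0.43), a row described as the general subunit 7A2. Cox7a2l, a factor that joins complexes III and IV, had a difference of 0.41 (adjusted p = 0.0872) and was not called, though it was without non-loaded Nb3-alloy replicate 2 (0.57, adjusted p = 0.025).

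In complex V none of the 15 tested members was called by limma, against 20.7% of all tested genes higher and 25.2% lower. An unadjusted limma p under 0.05 was found for 4 of the 15, and for 8108 of the 15268 tested genes. Limma-voom on recovered reads called 1 of the 15 lower, Atp5f1b (-0.50, adjusted p = 0.0339), against 25.7% of all genes. Atp5f1b stood at 352, 379 and 303 FPKM in loaded and 398, 523 and 551 FPKM in non-loaded Nb3 alloy, with no overlap (-0.50, SE 0.19, adjusted p = 0.0518). It passed the threshold in 8 of 17 alternatives, with adjusted p = 0.0484 when loaded replicate 2 was left out, 0.0162 when non-loaded replicate 1 was, and 0.00531 at the lowest. Its row overlaps other gene rows over 85.2% of its span. The other catalytic-head genes were Atp5f1a, with a difference of -0.31 (adjusted p = 0.124), and Atp5f1d, with 0.41 (adjusted p = 0.0621). Atp5if1, the inhibitor that blocks the enzyme when it runs backwards, stood at 87.5, 161 and 74.0 FPKM in loaded and 121, 186 and 186 FPKM in non-loaded Nb3 alloy (-0.66, SE 0.33, adjusted p = 0.12). Atp5if1 was called lower without loaded replicate 2 (-0.99, adjusted p = 0.0208), with total-read scaling (adjusted p = 0.0271) and with quantile normalization (adjusted p = 0.042). Atp5f1a was called lower without non-loaded replicate 1 (adjusted p = 0.0153), and Atp5f1d higher without loaded replicate 3 (adjusted p = 0.029) or non-loaded replicate 2 (adjusted p = 0.0461). Quantile normalization also called both, and total-read scaling Atp5f1a. The 4 peripheral stalk members ranged from -0.33 to 0.38, the 2 c-ring members from 0.05 to 0.34 and the 4 small membrane members from -0.07 to 0.74.

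Members were also split at their median transcript length of 1202 bases. The shorter 37 had a median loading difference of 0.26 in Nb3 alloy, with 30 above 0, 5 called higher and 0 lower. The longer 37 had a median of 0.09, with 26 above 0, 7 called higher and 2 lower. Over all tested genes split at the same length, the medians were -0.07 for shorter and -0.01 for longer genes. Of all shorter genes 11.9% were called higher and 17.2% lower, and of all longer genes 22.5% higher and 26.8% lower, so higher calls were also fewer among shorter genes as a whole.

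Beside titanium, no subunit gene passed the test for loading. With limma 0 of 74 members were called, as was 0.00655% of all tested genes. An unadjusted p under 0.05 was found for 1 member, and for 1062 of the 15268 tested genes. Limma-voom called 0 and had 0 at that unadjusted level. The median over members was 0.05, 71 of the 74 differences were below 0.5 in size, and their median SE was 0.20. The smallest p-values belonged to Ndufv3-ps1, Uqcr10 and Uqcrq. Ndufv3-ps1, a pseudogene row, stood at 2.19, 2.46 and 2.38 FPKM in loaded and 3.11, 4.55 and 4.76 FPKM in non-loaded cpTi (-0.61, adjusted p = 0.644). Uqcr10 averaged 36.5 ± 4.05 FPKM in loaded bone and 26.6 ± 3.08 FPKM in non-loaded bone beside cpTi (0.44, SE 0.22, adjusted p = 0.75), without overlap. Cox6a2 had a difference of 1.01 (SE 0.77, adjusted p = 0.829), Cox4i2 one of 0.26 (SE 0.36, adjusted p = 0.918) and Ndufa4l2 one of -0.55 (SE 0.51, adjusted p = 0.856).

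The loading effect differed between the materials for 1 member. In the interaction, the loading difference in Nb3 alloy minus that in cpTi, Ndufa4l2 had 3.10 (SE 0.73, adjusted p = 0.0138) and was called higher in all 22 alternatives run at the same threshold on adjusted p alone, with values from 2.63 to 3.90. It was 1 of 74 members (1.35%), against 8.42% of all tested genes, and 0 members were called lower by limma, against 11.8% of all tested genes. An unadjusted limma p under 0.05 was found for 7 members, and for 5198 of the 15268 tested genes. Limma-voom gave 0 lower calls, against 12.9% of all genes. Cox6a2 had an interaction of 2.21 (SE 1.09, adjusted p = 0.18) and Cox4i2 1.2 (SE 0.52, adjusted p = 0.129). Ndufs1 had -0.47 (SE 0.16, adjusted p = 0.0606). The median over members was 0.20, 0.01 with total-read scaling and -0.03 without non-loaded Nb3-alloy replicate 1. Higher calls numbered 3 without non-loaded Nb3-alloy replicate 2, where Ndufa5 (0.86, adjusted p = 0.0107) and Ndufa7 (0.83, adjusted p = 0.0167) were added. They numbered 2 without loaded Nb3-alloy replicate 3, where Cox6a2 was called (3.21, adjusted p = 0.0139). Of all genes, 6.52% and 8.46% were called higher in these runs, in that order. Cox6a2 passed the filter only through loaded libraries where it was high, so that call is no support for a difference. Ndufs1 was called lower without non-loaded Nb3-alloy replicate 1 (-0.57, adjusted p = 0.0227), as were 11.2% of all genes. Of the smooth muscle and pericyte markers, 6 of 8 were called higher in the interaction, against 8.42% of all tested genes.

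Under loading, the materials were compared through the same 3 loaded Nb3-alloy libraries, so this comparison is not independent of the loading effect above. Of 74 members 10 were called higher in Nb3 alloy (13.5%), against 14.7% of all tested genes, and 2 lower (2.70%), against 18.9% of all tested genes. The median was 0.16. With total-read scaling it was -0.02, with 3 higher and 6 lower calls, against 8.81% and 24.0% of all genes in that run. Quantile normalization gave 10 higher and 6 lower, against 16.9% and 17.5% of all genes. The higher members were Ndufa4l2 (2.84, SE 0.51, adjusted p = 0.00196), Cox6a2 (2.31, SE 0.77, adjusted p = 0.0398), Cox4i2 (1.54, SE 0.36, adjusted p = 0.00807), Ndufa2, Ndufa7, Ndufa5, Sdhb, Sdhc, Uqcrb on chromosome 7 and Ndufb2 on chromosome 4, the last 7 with differences of 0.41 to 0.70. Ndufs1, at 21.3 ± 0.150 FPKM in loaded Nb3 alloy and 28.6 ± 2.55 FPKM in loaded cpTi, fell by 0.41 on the log2 scale (adjusted p = 0.0182). Uqcrc2, at 22.4 ± 1.99 FPKM in loaded Nb3 alloy and 30.1 ± 1.33 FPKM in loaded cpTi, also fell by 0.41 on the log2 scale (adjusted p = 0.0438). Ndufa4l2 and Cox4i2 were the members whose call held in all alternatives at the same threshold on adjusted p alone. Leaving out any 1 of loaded Nb3-alloy replicates 1 or 2 or of the 3 loaded cpTi replicates cut the 10 higher calls to 3 or 4. Of all genes, 8.86% to 13.3% were called higher in those runs. The Cox6a2 call was lost without loaded Nb3-alloy replicate 1 or 2 (adjusted p = 0.0843 and 0.0948). It was also lost without loaded cpTi replicate 2 or 3 (adjusted p = 0.0976 and 0.123). Cox6a2 passed the filter only through loaded libraries where it was high, so here too its call is no support for a difference. Ndufs1 was lost without loaded cpTi replicate 1 (adjusted p = 0.0794), and Uqcrc2 without any 1 of the 6 loaded libraries.

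Without loading, no subunit gene passed the test between the materials. Limma called 0 of 74 members and 0% of all tested genes. An unadjusted p under 0.05 was found for 0 members, and for 470 of the 15268 tested genes. Limma-voom gave 0 members in both counts. The median over members was -0.01, and 73 of the 74 differences were below 0.5 in size, with a median SE of 0.20. The smallest p-values were those of Ndufs7, Atp5mk on chromosome 1 and Uqcr10, the largest of whose differences was that of Atp5mk, at 47.5 ± 18.7 FPKM in non-loaded Nb3 alloy and 60.4 ± 4.28 FPKM in non-loaded cpTi (-0.43, SE 0.33, adjusted p = 1).

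Transcripts of the mitochondrial genome, which supply the remaining subunits of complexes I, III, IV and V, set loaded Nb3 alloy apart from the other groups, which the nuclear sums did not. The 13 mitochondrially encoded protein genes summed to 121834, 297795 and 109028 FPKM in loaded Nb3 alloy and 40717, 38172 and 49924 FPKM in non-loaded Nb3 alloy. In cpTi they summed to 43292, 41493 and 44042 FPKM in loaded and 41908, 50089 and 64858 FPKM in non-loaded bone. All 13 were called higher with loading in Nb3 alloy, against 20.7% of all tested genes, with a median of 1.91, while the nuclear median was 0.21. The ratio of the nuclear to the mitochondrial sum was 0.0299 ± 0.0113 in loaded Nb3 alloy, against 0.0999 ± 0.0267 in non-loaded Nb3 alloy, 0.101 ± 0.00912 in loaded cpTi and 0.0826 ± 0.0170 in non-loaded cpTi (SD, n = 3 each). The 3 loaded Nb3-alloy ratios, 0.0170 to 0.0379, lay below those of the other 9 libraries, 0.0646 to 0.129. The libraries are of polyadenylated RNA, in which mitochondrial transcripts carry short tails, so the ratio compares what was captured.

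**Figure D5:**
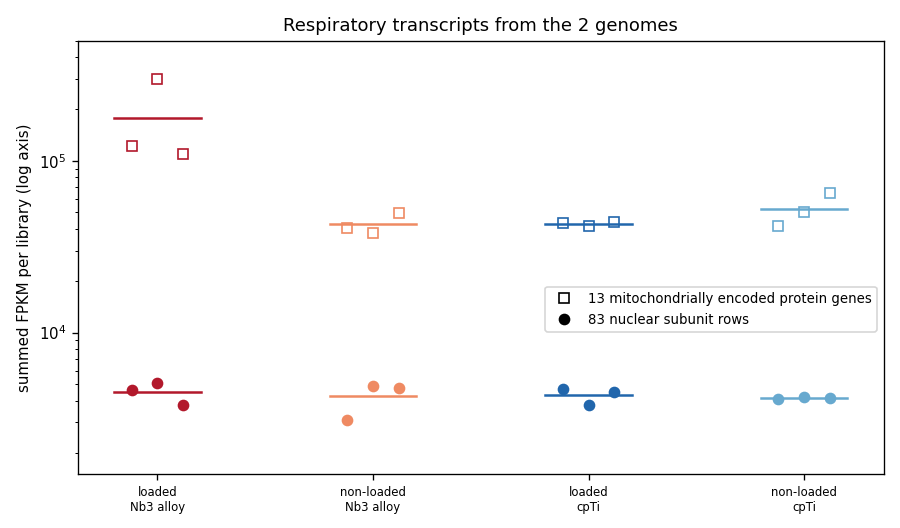
Summed FPKM per library, on a log axis, of the 13 mitochondrially encoded protein genes (open squares) and of the 83 nuclear rows (filled circles), with lines at group means. The mitochondrial sum is 109028 to 297795 in the 3 loaded Nb3-alloy libraries and at most 64858 in the other 9, while the nuclear sums overlap between all groups.

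Genes that serve the complexes without being subunits were described from lists chosen by function. In the loading effect in Nb3 alloy, 2 of 14 complex I assembly genes were called higher and 0 lower, with a median of 0.10. All call counts in these lists stand against 20.7% higher and 25.2% lower over all tested genes, and most lists are too short to be read against these shares. The 2 were Timmdc1, a factor for the membrane arm, at 9.96 ± 0.940 FPKM in loaded bone and 6.34 ± 0.546 FPKM in non-loaded bone beside Nb3 alloy (0.58, SE 0.12, adjusted p = 0.00208), and Ndufaf2, a late factor (1.06, SE 0.25, adjusted p = 0.00466). For complex II, III and V assembly, 1 gene each was called higher, of 3, 5 and 4 tested. They were a complex II factor (0.88, adjusted p = 0.00708), Ttc19 (0.46, adjusted p = 0.0281) and Tmem242 (0.51, adjusted p = 0.0275). A row named Sdhaf1 in the complex II list was at 0 in every library and was not tested. Of 12 complex IV assembly and expression genes, 1 was called lower, Lrpprc, which keeps mitochondrial messenger RNAs stable (-0.42, SE 0.10, adjusted p = 0.00672). Among 15 genes of electron carriers and ubiquinone synthesis 1 was called higher and 3 lower, with a median of 0.13. Coq8a, a kinase-like protein of ubiquinone synthesis, was the higher one (1.01, SE 0.24, adjusted p = 0.00502), and the enzymes Coq7 (-0.94, SE 0.18, adjusted p = 0.00174), Pdss1 (-0.76, adjusted p = 0.00718) and Coq3 (-0.79, adjusted p = 0.0127) were the lower ones.

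Citric acid cycle genes, which feed complexes I and II, and regulators of mitochondrial biogenesis had 0 higher calls, and their lower calls were near the 25.2% of all tested genes. Of 13 citric acid cycle genes 4 were lower and 0 higher, with a median of -0.08. Among them Dlst, a subunit of 2-oxoglutarate dehydrogenase, averaged 24.997 ± 1.81 FPKM in loaded bone and 39.4 ± 4.04 FPKM in non-loaded bone beside Nb3 alloy (-0.63, SE 0.14, adjusted p = 0.00351). Fumarase, Fh, had -0.62 (adjusted p = 0.015) and Ogdh -0.43 (adjusted p = 0.022). Of 13 tested regulators 4 were lower and 0 higher, with a median of -0.24. Nrf1, the activator whose motif was counted above, stood at 3.98, 3.84 and 3.59 FPKM in loaded Nb3 alloy, 8.21, 8.81 and 8.73 FPKM in non-loaded Nb3 alloy, 8.27, 6.40 and 6.52 FPKM in loaded cpTi, and 9.06, 7.82 and 8.49 FPKM in non-loaded cpTi. All 3 loaded Nb3-alloy libraries lay below the other 9, and the difference was -0.996 (SE 0.12, adjusted p = 8.14e-05). Yy1 (-0.81, SE 0.12, adjusted p = 0.000261) and Polg, the mitochondrial DNA polymerase (-0.68, SE 0.12, adjusted p = 0.000783), fell as well. In the interaction Nrf1 (-0.76, adjusted p = 0.0105), Polg (-0.71, adjusted p = 0.0126) and Yy1 (-0.63, adjusted p = 0.0225) were called lower. In cpTi, loading gave 0 calls in any of these lists. Markers of blood-forming and dividing cells, 8 of 8 in each of 3 lists, were called lower with loading in Nb3 alloy. Over all tested genes that share was 25.2%. The part of these markers in the differences above was not tested.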

How the data were processed

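The authors deposited 1 table of FPKM values for 33801 genes in 12 libraries, with coordinates, biotype and description per gene. Per the submitters' processing notes, the tools were DESeq2 1.20.0, featureCounts 1.5.0-p3, HISAT2 2.0.5, fastp and CASAVA 1.8, with no role given; no source used here gives the genome build, the annotation or the strandedness of counting. FPKM times gene length came in whole multiples of 1 read for 100% of values within 0.01, so relative depth could be read from the table; recovered reads served only an alternative test. The test was limma 3.58.1 (R 4.3.3, statmod 1.5.0), trended and robust, on log2(FPKM + 1), with 4 group means, 8 residual degrees of freedom and all 12 libraries in 1 fit. Genes at 1 FPKM in at least 3 libraries were tested (15268; 18533 were not), and p-values were adjusted by Benjamini-Hochberg over all of them; the same code was tested on simulated data. Groups followed the labels. Named were, per complex and comparison, the 3 called members that rose and fell most, all of complex II, the isoform pairs and, where no member was called, the 3 smallest p-values; from related lists up to 3 called genes by p; others named were chosen after their values were seen. Members and lists were chosen with earlier results of these data known. Alternatives were other scalings, filters, pseudocount, moderation, limma-voom, a replicate block, fits to the compared groups only, a threshold on size and leaving out each library. Promoters came from RefSeq (GRCr8), a build kept apart from the deposited coordinates; protein sequences were not used here, and 1 member below the filter is not reported here by name. Figures and summaries used Python 3.11.15, pandas 2.3.3 and matplotlib 3.10.9.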

Additional observations from a re-analysis of the deposited data

Results flagged for a closer look

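The effect of loading on Ndufa4l2 differed between the materials by a test of the difference itself: loading in Nb3 alloy minus loading in cpTi was 3.10 on the log2(FPKM + 1) scale (SE 0.73, limma adjusted p = 0.0138). Its loading difference was 2.54 in Nb3 alloy and -0.55 in cpTi. It was the only 1 of 74 tested members called in that comparison, against 8.42% of all tested genes higher and 11.8% lower.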

How the results depend on the processing

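For loading in Nb3 alloy (12 members higher, 2 lower, median 0.21), total-read scaling gave 5, 8 and 0.023, and quantile normalization 19 and 7. The compared groups alone gave 6 and 0, and a size threshold of 1 gave 4 and 0. Of all genes, quantile normalization called 22.4% higher and 23.4% lower. With the compared groups alone these shares were 16.0% and 20.4%, and with the size threshold 10.4% and 12.4%. Leaving out 1 library gave 8 to 17 higher, 1 to 7 lower and medians of 0.0071 to 0.35. Of all genes, those runs called 16.2% to 20.4% higher and 20.5% to 25.1% lower. For the materials under loading (10 higher, 2 lower, median 0.16), total-read scaling gave 3, 6 and -0.023, and no filter 3 and 1. The size threshold gave 3 and 0, and the compared groups alone 6 higher. Of all genes, no filter called 8.18% higher and 10.3% lower, the size threshold 5.79% and 9.11%, and the compared groups alone 10.6% higher. Quantile normalization gave 6 lower and nuclear-read scaling 1 lower, against 17.5% and 18.8% of all genes. Leaving out 1 library gave 3 to 7 higher and 0 to 2 lower, against 8.86% to 13.8% and 13.6% to 18.3% of all genes. In the interaction (1 higher, 0 lower, median 0.20), total-read scaling gave 1 lower (Ndufs1) and a median of 0.0086. There, leaving out 1 library gave 1 to 3 higher, 0 to 1 lower and medians of -0.032 to 0.34. Of all genes, these leave-out runs called 4.83% to 8.46% higher and 8.17% to 12.5% lower. Total-read scaling moved the median of all genes to -0.17, -0.15 and -0.18 in these comparisons. It called 14.7%, 8.81% and 5.48% of all genes higher and 30.5%, 24.0% and 15.5% lower there. The cause of these shifts was not tested. The other comparisons kept 0 calls among members in every alternative run. Of values for members named by the rule in a comparison, 1449 kept their side of the threshold, 102 lost it and 3 gained it. Among these, 0 called values changed sign. Some uncalled values did, such as Cox4i2 under loading in cpTi (0.26, and -0.07 without non-loaded cpTi replicate 1). This tally leaves out other members, and some of those gained a call in alternatives. For loading in Nb3 alloy, Atp5f1b, Atp5if1, Atp5f1a, Atp5f1d and Cox7a2l were among them, and in the interaction Ndufs1, Ndufa5 and Ndufa7. Of medians by complex, 422 moved by less than the spread and 28 by more.

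Replicate numbers are shared between groups. Same-numbered libraries did not deviate together (correlations of -0.252 to 0.115, mean -0.04), so the number is not taken as a pairing. With the replicate number as a block, loading in Nb3 alloy gave 12 higher and 2 lower, against 19.3% and 23.8% of all genes. The materials under loading gave 4 higher and 1 lower, against 12.8% and 17.3%, and the interaction 1 higher, against 6.91%. With 3 libraries a group and a median SE of 0.20, differences of about that size are not detectable in most members. Larger ones can be missed as well, and the highest loading difference in cpTi, 1.01 for Cox6a2, was not called. Levels below 1 FPKM rest on few reads, as for Cox6a2 in the non-loaded groups.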
